A study of Homo sapiens with 4 samples.

Results

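Transcripts of WTAP and of 9 other genes of the N6-methyladenosine (m6A) machinery were measured in HGC-27 (an established line from an undifferentiated human gastric carcinoma), with and without the peptide GLUP. The 10 genes comprise 7 writers (WTAP, METTL3, METTL14, VIRMA, ZC3H13, RBM15 and CBLL1), 2 erasers (ALKBH5 and FTO) and 1 reader (YTHDF2). They were listed by name and found by symbol, all 10 among the 62443 genes of the deposited table. The list was drawn up with values of the GLUP and control libraries known and counts as chosen on that contrast, so the values of these 10 genes in that contrast are a description and carry no test.

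RNA was sequenced from 2 libraries of cells given GLUP peptide (10 μg/ml) and 2 control libraries, which the labels record as untreated and the methods of the study as given the storage buffer of the peptide. GLUP is a cyclised peptide built to link molecules of TEAD4, the DNA-binding partner of the co-activator YAP. The RNA was sequenced to learn which genes changed with GLUP. The exposure is given as 12 h in one place and as 48 h in another. All 4 libraries came from 1 cell line in the same medium, and whether they came from separate cultures is not recorded in the labels, although the methods speak of biological replicates. The 4 libraries therefore model 1 cell line only, and any p-value below measures the spread between these libraries.

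The authors deposited 1 FPKM value per gene and library, that is, fragments scaled to gene length and library total, so levels can be set side by side between genes. Read numbers are not given, so the depth and the counting error of each value are unknown. Because FPKM is relative to the library and the RNA came from bulk cells, fewer cells with a transcript, less of it per cell and a larger share of other RNA cannot be told apart. The control libraries were more than 2-fold apart in FPKM for 30.3% of the 7588 genes averaging 1 FPKM or more, against 6.10% for the GLUP libraries, and control replicate 2 correlated less with either GLUP library (Pearson r of 0.873 and 0.886 across genes) than control replicate 1 did (0.952 and 0.957). Differences between the groups are given on the log2(FPKM + 1) scale, GLUP minus control, and the median over these 7588 genes was −0.36. Of the markers of the labelled cell type, the mesenchymal gene VIM lay between 293 and 387 FPKM in every library, whereas CDH2, the other mesenchymal marker, was at most 0.0508 FPKM. The keratin gene KRT8 lay between 1.05 and 2.25 FPKM, and the fibroblast gene COL1A1, between 2.97 and 6.90 FPKM, exceeded all 5 epithelial markers in each library. The other fibroblast markers, COL1A2 (0.246 to 0.443 FPKM) and PDGFRB (0.135 to 0.198 FPKM), were below KRT8 in each library. The defining epithelial genes EPCAM and CDH1 were at or near 0, at most 0.124 FPKM, the immune gene CD3E and the endothelial gene CDH5 were listed at 0 in all 4 libraries, and PECAM1 was not analysed here.

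As background, m6A is the most common internal modification of messenger RNA. METTL3 transfers the methyl group and METTL14 holds the RNA beside it, whereas WTAP carries no methyltransferase activity and anchors this pair in nuclear speckles, together with VIRMA, ZC3H13, CBLL1 and RBM15. ALKBH5 and FTO remove the methyl group, and YTHDF2 binds methylated RNA and recruits deadenylation for its decay. The libraries hold transcript levels only, and neither the mark nor any protein was measured.

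The promoters of WTAP, METTL3 and ALKBH5 are shown because they belong to the adaptor whose difference between the groups was the lowest of the 10, to its catalytic partner and to the only member that was higher with GLUP. The 250 bases before the annotated start are given 5′ to 3′ on the strand of the gene, from RefSeq on GRCh38.p14, with CG pairs in capitals. They lie at chr6:159726867-159727116 (plus strand, WTAP), chr14:21511341-21511590 (minus strand, METTL3) and chr17:18183578-18183827 (plus strand, ALKBH5).
WTAP: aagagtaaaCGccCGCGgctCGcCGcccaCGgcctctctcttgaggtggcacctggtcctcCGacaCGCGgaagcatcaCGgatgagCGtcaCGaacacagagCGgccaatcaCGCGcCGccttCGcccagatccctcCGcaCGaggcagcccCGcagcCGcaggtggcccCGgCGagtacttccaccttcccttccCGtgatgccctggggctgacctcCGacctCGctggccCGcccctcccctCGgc
METTL3: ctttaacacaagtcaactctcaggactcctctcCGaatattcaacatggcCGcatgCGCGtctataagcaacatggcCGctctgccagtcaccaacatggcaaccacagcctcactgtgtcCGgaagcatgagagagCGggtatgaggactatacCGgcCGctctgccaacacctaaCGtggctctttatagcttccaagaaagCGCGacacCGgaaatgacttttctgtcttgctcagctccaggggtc
ALKBH5: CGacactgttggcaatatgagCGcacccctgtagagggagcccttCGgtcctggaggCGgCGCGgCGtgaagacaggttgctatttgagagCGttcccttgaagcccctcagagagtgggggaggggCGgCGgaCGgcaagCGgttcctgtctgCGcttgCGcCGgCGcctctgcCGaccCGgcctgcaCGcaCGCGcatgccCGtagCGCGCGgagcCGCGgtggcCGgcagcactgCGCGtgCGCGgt

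The WTAP and ALKBH5 stretches had the same GC content, 70.0%, with 28 and 32 CG pairs, and that of METTL3 had 53.2% with 13 CG pairs. Windows of 300 bases, from 250 before to 50 after the start, were examined for 9 of the 10 members (11 windows, as WTAP and YTHDF2 have 2 starts each). The promoter of VIRMA was not analysed here. None of the 11 windows held the M-CAT core CATTCC, the element that TEAD factors bind, or the AP-1 element TGANTCA on either strand. Of the 35116 windows of all genes, 14.0% held the former and 7.71% the latter.

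WTAP, on chromosome 6 from 160146617 to 160177351 on the plus strand of GRCh37, read 11.4 and 12.5 FPKM in control cells against 2.19 and 2.23 FPKM under GLUP. Both GLUP values were far below the control values, and the replicates of each group were close together. The mean was 11.97 ± 0.819 FPKM (SD, n = 2) in control cells and 2.21 ± 0.0296 FPKM (SD, n = 2) with GLUP, which is 18.5% of control. The nearest pair of libraries across the groups was 5.10-fold apart, against 1.10-fold within the control group. On the log2(FPKM + 1) scale the difference was −2.01, or −1.66 with that median subtracted, and 63 of these genes (0.83%) had a lower one. WTAP lies within the annotated span of SOD2 on the opposite strand, whose values were not analysed here, and the sources do not say if reads were counted by strand.

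METTL3, the catalytic subunit, is on chromosome 14 from 21966277 to 21979484 on the minus strand. It read 10.95 and 8.13 FPKM in control cells against 6.58 and 6.39 FPKM under GLUP. The groups did not overlap, but the gap between the nearest libraries was 1.24-fold, smaller than the 1.35-fold between the control libraries. The mean with GLUP was 67.9% of control and the log2 difference −0.48, or −0.13 once the median of the 7588 genes is subtracted. The end of METTL3 overlaps TOX4 on the opposite strand, which read 5.41 and 5.59 FPKM in control cells against 5.17 and 4.47 FPKM under GLUP.

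METTL14, the RNA-binding partner of METTL3, was far less abundant, with 1.03 and 1.06 FPKM in control cells against 0.499 and 0.472 FPKM under GLUP. Its replicates were within 1.06-fold of each other in both groups, and the mean with GLUP was 46.4% of control. Since a pseudocount of 1 is large beside such levels, its log2 difference was −0.46 with it and −1.11 as the ratio of the mean FPKM. METTL14 lies on chromosome 4 from 119606547 to 119636588.

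The other subunits of the writer complex differed in how well their replicates held together. VIRMA, the large scaffold that WTAP binds, read 0.979 and 1.11 FPKM in control cells against 0.600 and 0.632 FPKM under GLUP, 59.1% of control by the means. CBLL1, a RING-type ubiquitin ligase of the complex also called HAKAI, read 3.70 and 2.88 FPKM in control cells against 2.25 and 2.20 FPKM under GLUP, 67.6% of control. In both genes the GLUP values were the lower pair. For CBLL1 the nearest libraries across the groups were 1.28-fold apart, no more than the control libraries (1.28-fold). For VIRMA the nearest libraries were 1.55-fold apart and the control libraries 1.13-fold. An antisense RNA, CBLL1-AS1, overlaps the start of CBLL1 and read 3.09 and 2.50 FPKM in control cells against 2.21 and 1.33 FPKM under GLUP.

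For ZC3H13 and RBM15 the size of the difference depended on which control library was used. ZC3H13, a zinc finger protein that keeps the complex in the nucleus, lies on chromosome 13 from 46528600 to 46626894 and had 4.64 and 12.2 FPKM in control replicates 1 and 2 against 3.08 FPKM in each GLUP library. The control libraries were 2.63-fold apart, more than the 1.51-fold between the lower of them and the higher GLUP library. Its log2 difference of −1.08 was −0.47 with control replicate 2 left out and −1.69 with the other control left out. RBM15, an RNA-binding protein that brings the complex to its targets, was the scarcest writer, with 0.309 and 0.771 FPKM in control cells against 0.285 and 0.325 FPKM under GLUP. Its groups overlapped, and its log2 difference of −0.22 was −0.0044 with control replicate 2 left out and −0.44 with the other control left out.

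**Figure D1:**
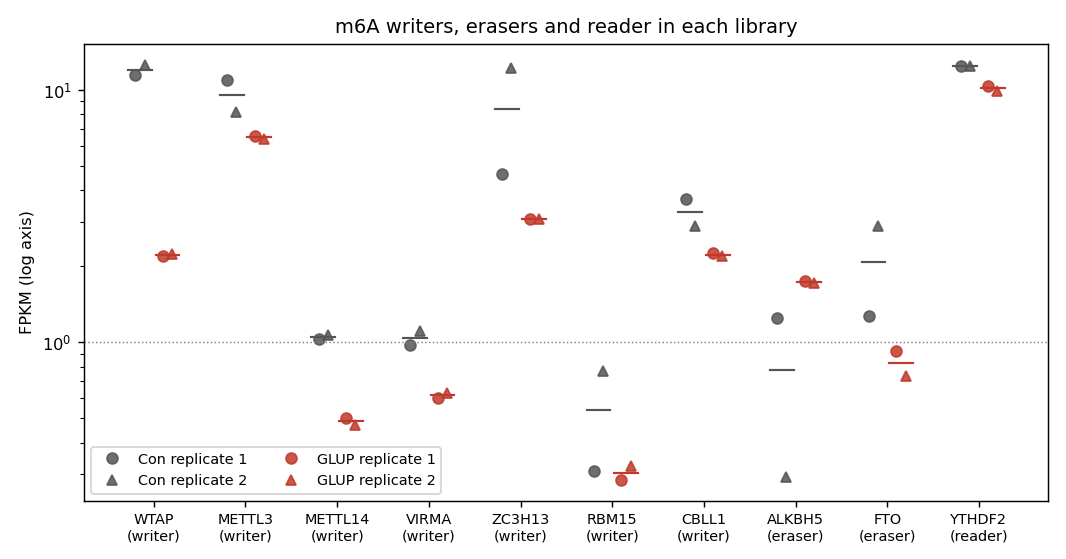
FPKM (log axis) of the 10 genes in each of the 4 libraries, with circles for replicate 1, triangles for replicate 2, horizontal bars for group means (n = 2) and a dotted line at 1 FPKM. WTAP shows the widest gap between the groups, from 11.4 and 12.5 to 2.19 and 2.23 FPKM, while the control libraries of ZC3H13, RBM15, ALKBH5 and FTO lie more than 2-fold apart.

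The erasers, which are both dioxygenases that use iron and 2-oxoglutarate, had differences of opposite sign. ALKBH5, on chromosome 17 from 18086392 to 18113268, read 1.25 and 0.294 FPKM in control cells against 1.75 and 1.71 FPKM under GLUP. Both GLUP libraries lay above both control libraries, but the latter were 4.26-fold apart and the nearest libraries across the groups 1.37-fold. The mean of ALKBH5 with GLUP was 224% of control. Its log2 difference of 0.68 was 0.28 against control replicate 1 alone and 1.08 against control replicate 2 alone, and 1.16 as the ratio of mean FPKM. FTO, on chromosome 16 from 53735604 to 54192424, read 1.27 and 2.89 FPKM in control cells against 0.925 and 0.737 FPKM under GLUP, with the control libraries 2.28-fold apart and the nearest libraries 1.37-fold. The mean of FTO with GLUP was 40.0% of control. Its log2 difference of −0.70 was −0.31 against control replicate 1 alone and −1.09 against control replicate 2 alone, and −1.32 as the ratio of mean FPKM. The start of FTO overlaps RPGRIP1L on the opposite strand, with 11.4 and 15.9 FPKM in control cells against 4.03 and 5.98 FPKM under GLUP, so reads shared by both genes cannot be told apart where strand was not used.

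YTHDF2, on chromosome 1 from 29063133 to 29096287, was level at 12.4 FPKM across the control pair, against 10.4 and 9.87 FPKM under GLUP. The groups did not overlap, and the mean with GLUP was 81.5% of control, the closest to control of the 10 genes by the ratio of mean FPKM. On the log2(FPKM + 1) scale its difference of −0.27 was larger in size than that of RBM15 and above the median of all genes tested by 0.084.

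Over the 10 genes, 8 had each GLUP value below each control value, as did 49.7% of the 7588 genes tested. ALKBH5 had both above, as did 17.5% of the genes tested, and RBM15 overlapped. The log2 difference was below −1 for 2 of the 10 (WTAP and ZC3H13, the latter not without control replicate 2), as for 16.3% of the genes tested, and above 1 for none of them, against 6.83%. These member counts rest on the pseudocount of 1, since with 0.1 in its place ALKBH5 was at 1.33 and FTO at −1.13, and ALKBH5 was at 1.02 with the libraries centred on their medians. The median of the 10 was −0.43, or −0.079 with the median of the 7588 genes tested subtracted. The median was −0.46 for the 7 writers, between −2.01 for WTAP and −0.22 for RBM15. Of the members, 7 reached the average of 1 FPKM set for tests, and METTL14, VIRMA and RBM15 did not. The members were chosen on this contrast, so nothing is read from these counts.

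The order of the levels changed mainly through WTAP and ALKBH5. In control cells the means ran from YTHDF2 (12.4 FPKM) through WTAP (11.97), METTL3 (9.54), ZC3H13 (8.42), CBLL1 (3.29), FTO (2.08), METTL14 (1.05), VIRMA (1.04) and ALKBH5 (0.774) to RBM15 (0.540 FPKM). The library values of neighbours overlapped for YTHDF2 and WTAP, for METTL3 and ZC3H13, for CBLL1 and FTO, and for each neighbouring pair from METTL14 to RBM15. With GLUP the means ran from YTHDF2 (10.1 FPKM) through METTL3 (6.48), ZC3H13 (3.08), CBLL1 (2.22), WTAP (2.21), ALKBH5 (1.73), FTO (0.831), VIRMA (0.616) and METTL14 (0.486) to RBM15 (0.305 FPKM). Here the values overlapped for CBLL1 and WTAP only. WTAP held rank 2 and rank 1 of the 10 in the control libraries, and rank 5 and rank 4 in the GLUP libraries. ALKBH5 held rank 7 and rank 10 in the control libraries, and rank 6 in each GLUP library.

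Ratios within a library do not depend on how the libraries were scaled. WTAP was at 1.04 and 1.54 times the FPKM of METTL3 in the control libraries and at 0.333 and 0.350 times in the GLUP libraries. Against CBLL1 the ratio of WTAP was 3.08 and 4.35 in control cells and 0.973 and 1.02 with GLUP. WTAP was thus lower relative to both subunits in both GLUP libraries. METTL3 and CBLL1 kept nearly the same ratio to each other, 2.96 and 2.82 in control cells and 2.92 and 2.91 with GLUP. The writers summed to 33.0 and 38.7 FPKM in control cells and to 15.5 and 15.3 FPKM with GLUP. Unlike the ratios, these sums do depend on the scaling of the libraries. WTAP made up 34.5% and 32.4% of the sum in control cells and 14.2% and 14.6% with GLUP.

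The catalytic pair and the erasers behaved less uniformly. METTL3 was at 10.6 and 7.65 times the FPKM of METTL14 in control cells and at 13.2 and 13.5 times with GLUP. ALKBH5 was at 0.989 and 0.102 times the FPKM of FTO in control cells and at 1.90 and 2.33 times with GLUP. Both GLUP libraries exceeded both control libraries in each of these ratios. For the erasers, however, the control libraries were more fold apart from each other than control replicate 1 was from either GLUP library.

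**Figure D2:**
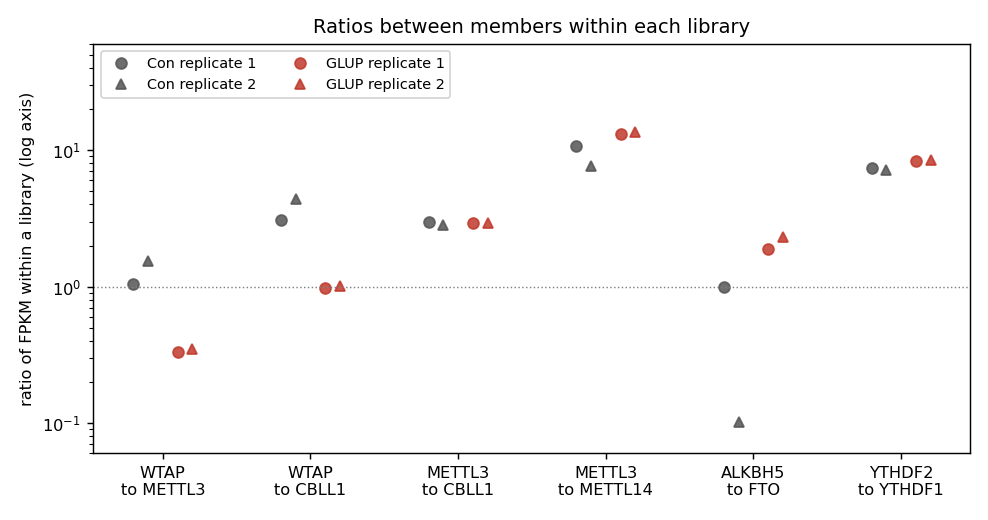
Ratios of FPKM between pairs of genes within each library (log axis), with circles for replicate 1 and triangles for replicate 2, and a dotted line at a ratio of 1. The ratio of WTAP to METTL3 is 1.04 and 1.54 in control cells and 0.333 and 0.350 with GLUP, whereas that of METTL3 to CBLL1 stays between 2.82 and 2.96 in all 4 libraries.

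Differences between the groups varied with the GC content of the transcripts across the 7570 genes tested with a known value (Spearman rho 0.58, a description across genes of the same libraries). The members ranged from 37.9% GC in CBLL1 to 57.6% in ALKBH5, which was both the most GC-rich member and the only one with a higher level with GLUP. WTAP, at 44.2%, was near the median of 46.5%. With the GC trend removed from each library, the log2 difference of WTAP was −1.48, and the next lowest of the 10 was −0.43 for RBM15, followed by ZC3H13 at −0.42 and FTO at −0.30. The other 6 were then above 0, at 0.13 for METTL3, 0.31 for METTL14, 0.36 for VIRMA, 0.37 for CBLL1, 0.30 for ALKBH5 and 0.12 for YTHDF2. Subtracting the trend also took out the shift shared by all genes, whose median log2 difference was −0.36 before and 0.0020 after. The turns of sign mix both changes, and the part of GC content in these differences was not tested.

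**Figure D3:**
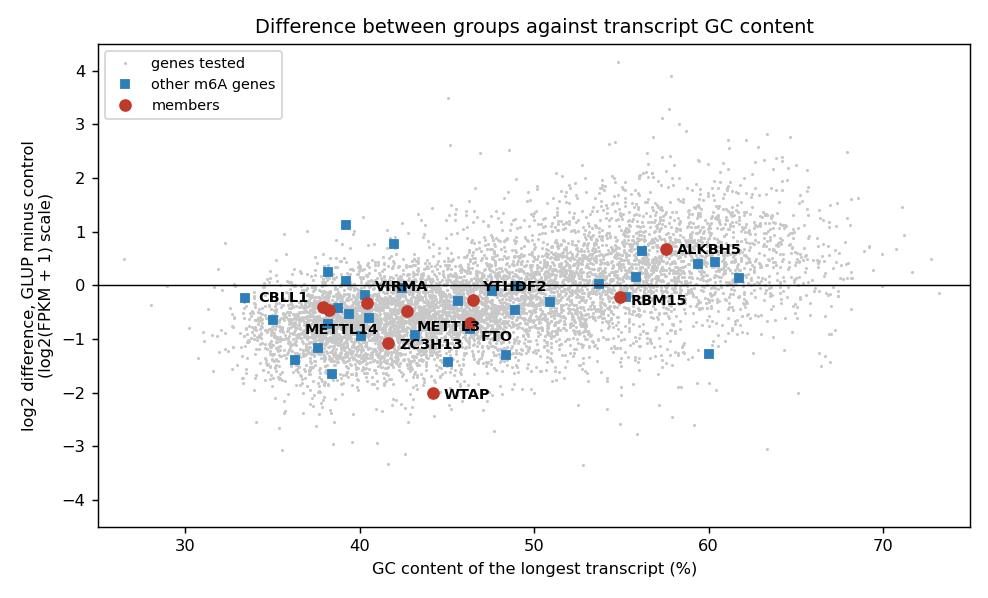
Log2 difference between GLUP and control (log2(FPKM + 1) scale) against the GC content of the longest transcript in percent, for the genes tested (grey, 2 of them outside the axes), the other m6A genes (blue squares) and the 10 members (red, named). WTAP lies at −2.01 and 44.2% GC, below the other members, and ALKBH5 at 0.68 and 57.6%.

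The settings that can move a log2 difference were a pseudocount of 0.1, the ratio of mean FPKM, centring on medians, quantile normalization, removal of the GC trend and leaving out each library. WTAP had the lowest value of the 10 in each of them, between −2.44 and −1.48, and was at −1.67 with the libraries centred. ZC3H13 and FTO stayed below 0 and ALKBH5 above 0 in the same settings. METTL3, METTL14 and CBLL1 turned sign with the GC trend removed, RBM15 with centring, VIRMA with both of these, and YTHDF2 with these and with quantile normalization.

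**Figure D4:**
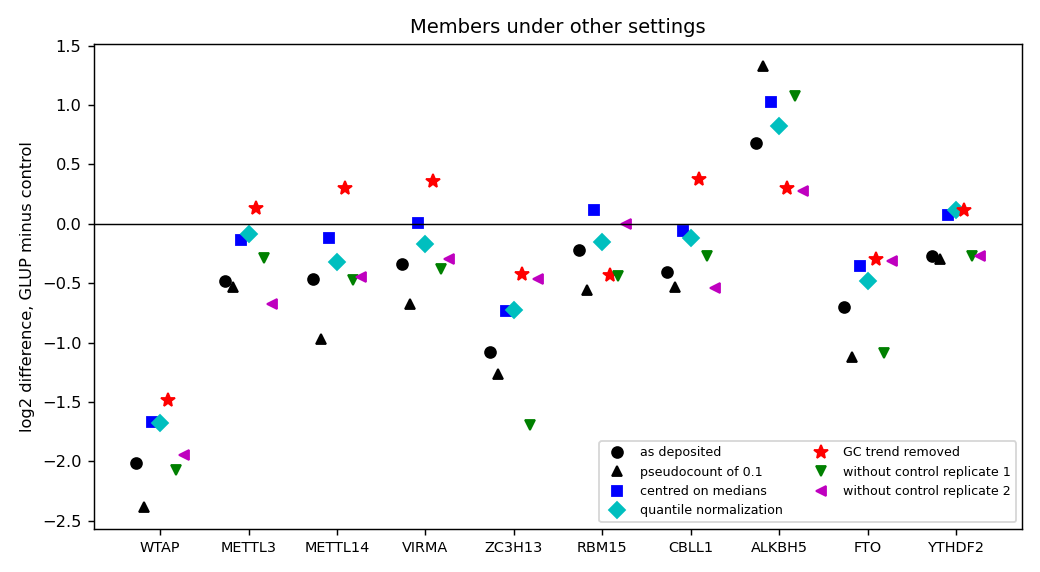
Log2 difference between GLUP and control for each of the 10 genes as deposited and under 6 other settings, one marker per setting. WTAP stays between −2.38 and −1.48, while METTL3, METTL14, VIRMA, CBLL1 and YTHDF2 lie above 0 with the GC trend removed and ZC3H13, ALKBH5 and FTO shift with which control library is left out.

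The 5 genes with a pattern most like that of WTAP over the 4 libraries were CDKN3, PRDM2, JKAMP, HIGD1A and CHCHD4, at Euclidean distances from 0.099 to 0.19 between mean-centred log2(FPKM + 1) profiles. CDKN3, a phosphatase of cyclin-dependent kinases, read 617 and 640 FPKM in control cells against 148 and 163 FPKM under GLUP. PRDM2, a zinc finger protein with a PR domain, read 3.43 and 4.35 FPKM in control cells against 0.193 and 0.169 FPKM under GLUP. CHCHD4, an oxidoreductase of mitochondrial protein import, read 31.8 and 33.6 FPKM in control cells against 7.97 and 8.84 FPKM under GLUP. JKAMP, a membrane protein that binds the kinase JNK1, read 30.4 and 30.0 FPKM in control cells against 6.93 and 6.95 FPKM under GLUP. HIGD1A, a mitochondrial protein induced by hypoxia, read 118 and 137 FPKM in control cells against 30.2 and 34.3 FPKM under GLUP. All 5 were lower in both GLUP libraries by construction of the measure, and low genes are compressed on this scale, so that PRDM2 was near WTAP although its fold in FPKM was larger.

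The other genes of the pathway were taken from a list of 33, all of which were found in the table and 26 of which averaged 1 FPKM or more. This list too was chosen with earlier results of these data known, so its counts and p-values are a description. With limma (linear model on log2(FPKM + 1), Benjamini-Hochberg adjustment over the 7588 genes), none of the 26 had an adjusted p under 0.05 with a fold over 2, as was the case for 0.0264% of all genes tested, and the smallest adjusted p from limma was 0.10. At an unadjusted p under 0.05, 11 of the 26 were lower and 0 were higher with GLUP, against 25.4% and 6.37% of all genes tested. With the libraries centred on their medians the split over all genes turned, from 1926 lower and 483 higher to 754 lower and 1172 higher at an unadjusted p under 0.05, and that of the list to 4 lower and 2 higher. Of the 26, 3 were lower and 2 higher at an unadjusted p under 0.05 with the GC trend removed, and 1 was lower and 0 were higher without GLUP replicate 1 and likewise without GLUP replicate 2. Without control replicate 1 the fit called 10 of 23 tested genes of this list (8 lower, 2 higher) and 2717 of 7445 genes in all, and without control replicate 2 it called 5 of 23 (all lower) and 1062 of 7413, the single control library then being assumed to vary as the GLUP libraries do. Of the 26 tested genes, 16 had each GLUP value below each control value, 2 had both above and 8 overlapped, beside 49.7% below and 17.5% above over all genes tested, and their median log2 difference was −0.50. Over all 33, including the 7 under 1 FPKM, 18 were below, 6 above and 9 overlapping, with a median of −0.29.

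Among the close relatives of members, YTHDF1 and YTHDF3, the paralogs of YTHDF2, were less abundant than YTHDF2 in every library. YTHDF1 read 1.69 and 1.72 FPKM in control cells against 1.24 and 1.16 FPKM under GLUP. YTHDF3 read 0.792 and 0.733 FPKM in control cells against 0.339 and 0.283 FPKM under GLUP, 40.7% of control by the means. YTHDF2 made up 83.3% and 83.5% of the summed FPKM of these readers in control cells and 86.8% and 87.3% with GLUP. RBM15B, the paralog of RBM15, read 0.521 and 0.356 FPKM in control cells against 0.650 and 0.549 FPKM under GLUP, and RBM15 was at 0.592 and 2.17 times the FPKM of RBM15B in control cells and at 0.439 and 0.591 times with GLUP. Reads shared by near-identical stretches of such paralogs could be split in ways the deposited values do not show.

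The lowest differences among tested genes of the list whose groups did not overlap were those of RIDA, CNOT1 and FXR1. RIDA, also known as HRSP12, bridges YTHDF2 to an endonuclease, and read 54.9 and 46.1 FPKM in control cells against 15.6 and 15.2 FPKM under GLUP (log2 difference −1.65, adjusted p = 0.10 from limma). CNOT1, the scaffold of the deadenylase that YTHDF2 recruits, read 8.02 and 27.9 FPKM in control cells against 5.12 and 4.84 FPKM under GLUP (log2 difference −1.43, adjusted p = 0.154 from limma), with the control libraries 3.48-fold apart. FXR1, an RNA-binding protein of the fragile X family, read 8.10 and 12.7 FPKM in control cells against 3.15 and 3.42 FPKM under GLUP (log2 difference −1.38, adjusted p = 0.10 from limma).

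Under the same limit to tested genes without overlap, the highest differences were those of HNRNPC, HNRNPA2B1 and TRMT112, the last of them below 0. HNRNPC, which binds RNA that m6A has unfolded, read 207 and 72.3 FPKM in control cells against 304 and 238 FPKM under GLUP (log2 difference 1.13, adjusted p = 0.207 from limma). Its control libraries were 2.86-fold apart, and the nearest libraries across the groups 1.15-fold. HNRNPA2B1, a nuclear RNA-binding protein of the same class, read 55.6 and 61.5 FPKM in control cells against 106 and 94.4 FPKM under GLUP (log2 difference 0.77, adjusted p = 0.164 from limma), and its groups were 1.53-fold apart at the nearest libraries. TRMT112, the cofactor of METTL5 in the methylation of ribosomal RNA, read 511 and 560 FPKM in control cells against 447 and 471 FPKM under GLUP (log2 difference −0.22, adjusted p = 0.606 from limma). METTL5 itself, named here after its values were seen, read 46.2 and 49.8 FPKM in control cells against 24.95 and 23.8 FPKM under GLUP (log2 difference −0.95, adjusted p = 0.12 from limma).

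By group, the 4 genes listed under the methyl donor cycle had a median log2 difference of −0.72. They were AHCYL1 at −1.31, MAT2B at −1.16, MAT2A at −0.29 and AHCY at 0.64, the last with control libraries 4.17-fold apart. The GLUP values were the lower pair in 2 of them (AHCYL1 and MAT2B), beside 49.7% of all genes tested. The median was −0.22 over the 7 other methyltransferases and their cofactors, −0.27 over the 4 other YTH readers, −0.0095 over 13 other RNA-binding readers and −0.53 over 5 effectors. These medians include genes under 1 FPKM, whose differences the pseudocount of 1 shrinks. By the means, YTHDF3 and YTHDC2, both under 1 FPKM, were at 40.7% and 28.4% of control. YTHDF1 and YTHDC1 were at 70.1% and 85.25%. The RNA-binding readers had the widest range, from −1.38 for FXR1 to 1.13 for HNRNPC. In both GLUP libraries 6 of these 13 were below control and 4 above, beside 49.7% and 17.5% of all genes tested, and 2 of the 4 (FXR2 and PRRC2A) were under 1 FPKM and not tested.

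**Figure D5:**
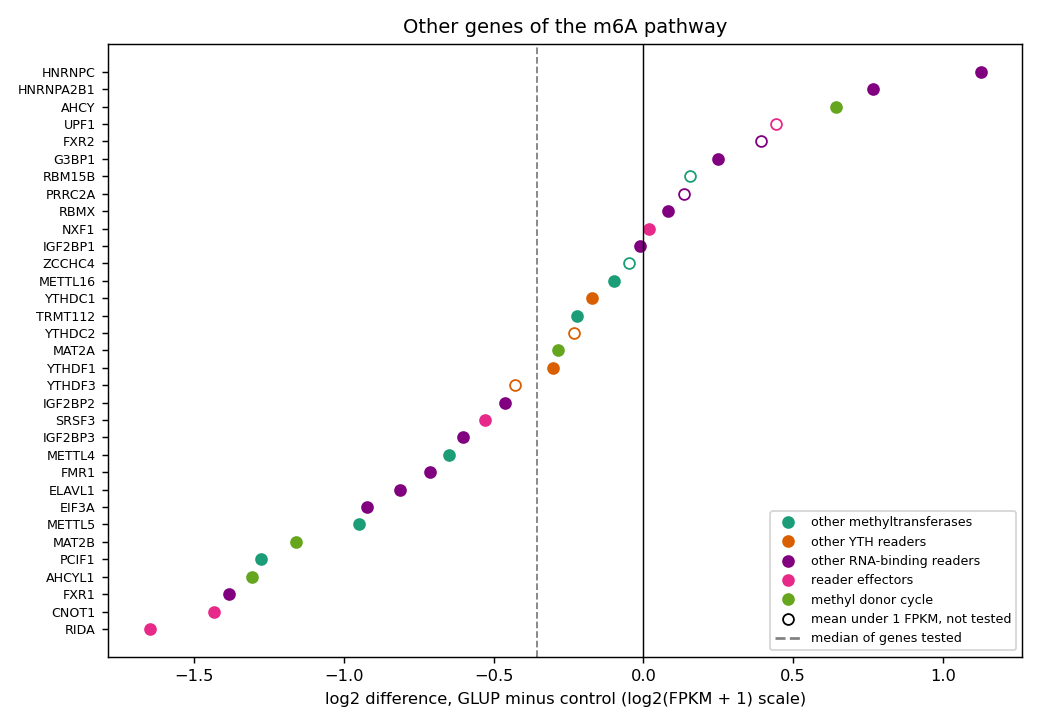
Log2 difference between GLUP and control (log2(FPKM + 1) scale) for the 33 other genes of the m6A pathway, coloured by role, with open circles for genes under a mean of 1 FPKM, a solid line at 0 and a dashed line at the median of all genes tested (−0.36). Values run from −1.65 for RIDA to 1.13 for HNRNPC.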

How the data were processed

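RNA-seq libraries of HGC-27 cells (2 with GLUP, 2 control) were used. The authors had the reads analysed through a commercial platform (Majorbio), and FPKM values per gene were deposited. The submitters' processing notes name HISAT2, Cufflinks, RSEM and GRCh38.p10, with no versions, whereas the row IDs have the form of GENCODE annotation lifted to GRCh37. Gene positions, GC content (longest transcript) and names come from GENCODE v44 lifted to GRCh37, and 99.55% of the IDs matched without version. Rows of one gene ID were summed (62492 rows, 62443 genes).

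Values were taken on the log2(FPKM + 1) scale. Tests used limma 3.58.1 (R 4.3.3, trend on, Benjamini-Hochberg adjusted) over genes averaging 1 FPKM or more, at an adjusted p under 0.05 and a fold over 2. The fit was run on simulated data with the same spread in both groups. That check does not cover the wider spread of the control libraries seen here. The members and lists were chosen with earlier results of these data known. Read numbers are not given, so depth is unknown. The GC trend was removed by subtracting a lowess curve (span 0.3) of the deviation of each library from the gene mean. This step also removed the shift shared by all genes.

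Besides the 10 members, the genes named by rule were the paralogs YTHDF1, YTHDF3 and RBM15B, and the 5 genes nearest to WTAP. The rule also took the 3 highest and 3 lowest differences among tested genes of the pathway list without overlap between the groups. Others of that list, such as METTL5 and the methyl donor genes, were named after their values were seen. The alternatives were another pseudocount, other filters, centring, quantile normalization, no trend, the replicate number as a block, GC correction, and leaving out each library. The ratio of mean FPKM was added after seeing the data.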

Additional observations from a re-analysis of the deposited data

How the results depend on the processing

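The log2 difference of WTAP, −2.01 as reported, was −2.38 with a pseudocount of 0.1, −1.67 centred on medians, −1.68 with quantile normalization, −1.48 with the GC trend removed and −2.44 as the ratio of mean FPKM. It lay between −2.08 and −1.95 with one library left out. The median of the 10 members, −0.43 as reported, was −0.62, −0.091, −0.16, 0.12 and −0.79 in the same order, and between −0.45 and −0.38 with one library left out.

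Signs turned in other members as well. Centred on medians, VIRMA was at 0.0060, RBM15 at 0.12 and YTHDF2 at 0.072. With quantile normalization YTHDF2 was at 0.11. With the GC trend removed, with or without the replicate number as a block, METTL3 was at 0.13, METTL14 at 0.31, VIRMA at 0.36, CBLL1 at 0.37 and YTHDF2 at 0.12. Centring shifts all genes alike, and removal of the GC trend takes out a shift shared by all genes as well. The cause of the turns with quantile normalization and with the GC trend removed was not tested.

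The count of genes called by limma, 2 as reported, was 1 with a pseudocount of 0.1, centred on medians or with quantile normalization. No gene was called with every gene above 0 kept, with the minimum raised to 5 FPKM, with trend off or with the GC trend removed, where limma gave an unadjusted p under 0.05 for 2761, 956, 1910 and 679 lower and 983, 218, 468 and 711 higher genes. It ranged from 4 to 2717 with one library left out. Among the other m6A genes it ranged from 0 to 10 with one library left out and was 0 in every other setting.

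Equal replicate numbers share only a number. Deviations of same-numbered libraries correlated at 0.13 across genes, and no source ties the numbers to a shared day or culture. With the replicate number as a block, limma called 2 genes and none of the other m6A genes (11 lower and 1 higher at an unadjusted p under 0.05), and with the GC trend removed as well it called 16 genes. The block leaves every log2 difference as it was, by construction.

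Depth is unknown, so members under 1 FPKM carry a counting error that cannot be stated, and 2 libraries a group limit every comparison. The differences of ZC3H13, RBM15, ALKBH5 and FTO depended on which control library was used.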
